A study of Arabidopsis thaliana with 18 samples.

Results

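The genes described here had lower transcript ratios 2 h after leaving white light than in white light, in both the blade and the petiole of Arabidopsis thaliana leaves, and all but 1 of them are known in the annotations used only by a locus code. They were chosen by their measured values: a probe set had to carry a single gene known only by a locus code, its median had to be at most 0.5 of the white-light median after darkness and after a far-red pulse with darkness, in each tissue, and all 6 dark arrays of a tissue had to lie under its 3 white-light arrays. AT2G15020, AT1G52770 and AT5G57670 were left out by the same rule. This gave 32 probe sets for 32 genes out of 22746 non-control probe sets, 11933 of which carry a single locus-code gene. Their reduction against white light is therefore a description, not a test.

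Light keeps many leaf genes active through phytochromes and cryptochromes and through the sugars made by photosynthesis. Phytochrome is activated by red light and returned to its inactive form by far-red light, and active phytochrome leads to the breakdown of PIF transcription factors, which build up in darkness. A far-red pulse before darkness removes active phytochrome at once, so that comparing it with darkness alone asks which genes respond to the state of phytochrome as well as to the loss of light.

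Wild-type seedlings grew at 22 °C under white light without a night for 19 days. One group stayed in white light for another 2 h (WL), one was moved to darkness for 2 h (D), and one received a far-red pulse followed by 2 h of darkness (FRD). RNA came from the blades or the petioles of rosette leaves 3 and 4, with 3 arrays from independent biological replicates for each of the 6 groups, 18 in all. Each organ is a mixture of cell types, and in such samples fewer cells of one type cannot be told apart from less RNA per cell.

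Values were deposited after division by the median of the 3 white-light arrays of the same tissue, so white light stands near 1 by construction, a value of 0.25 means 0.25 of the white-light level, and the absolute level of a gene is unknown. The medians of the 18 arrays over all non-control probe sets lay between 0.937 and 1.02. In all 6 groups the array with replicate number 3 had the lowest median over the 32 members, for example 0.2 in petiole D against 0.356 and 0.33 in the other arrays of that group. Its part in the results was not tested, but the comparisons below were also made without the replicate 3 arrays. The array's control for 25S ribosomal RNA stood at 0.97 ± 0.2 log2 units in blade D, -0.08 ± 0.22 in blade WL and 0.34 ± 0.25 in blade FRD (SD, n = 3). In petioles it was 0.05 ± 0.26 in D and 0.15 ± 0.36 in FRD, and its part in the blade results was not tested.

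The medians of the 32 genes in the dark groups lay between 0.0341 and 0.5 of white light. Over the members, the typical median was 0.324 in blade D, 0.257 in blade FRD, 0.31 in petiole D and 0.261 in petiole FRD. Averaged on the log scale over those 4 groups, the reduction ran from 2.25-fold to 9.91-fold, with a median of 3.36-fold. Single dark arrays ranged from 0.0165 to 0.788, and single white-light arrays from 0.387 to 1.86. All 4 medians were at most 0.25 for 5 genes, AT2G27420, AT1G19960, AT1G10640, AT1G60590 and AT1G06000, and all were above 0.25 for 8.

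**Figure D1:**
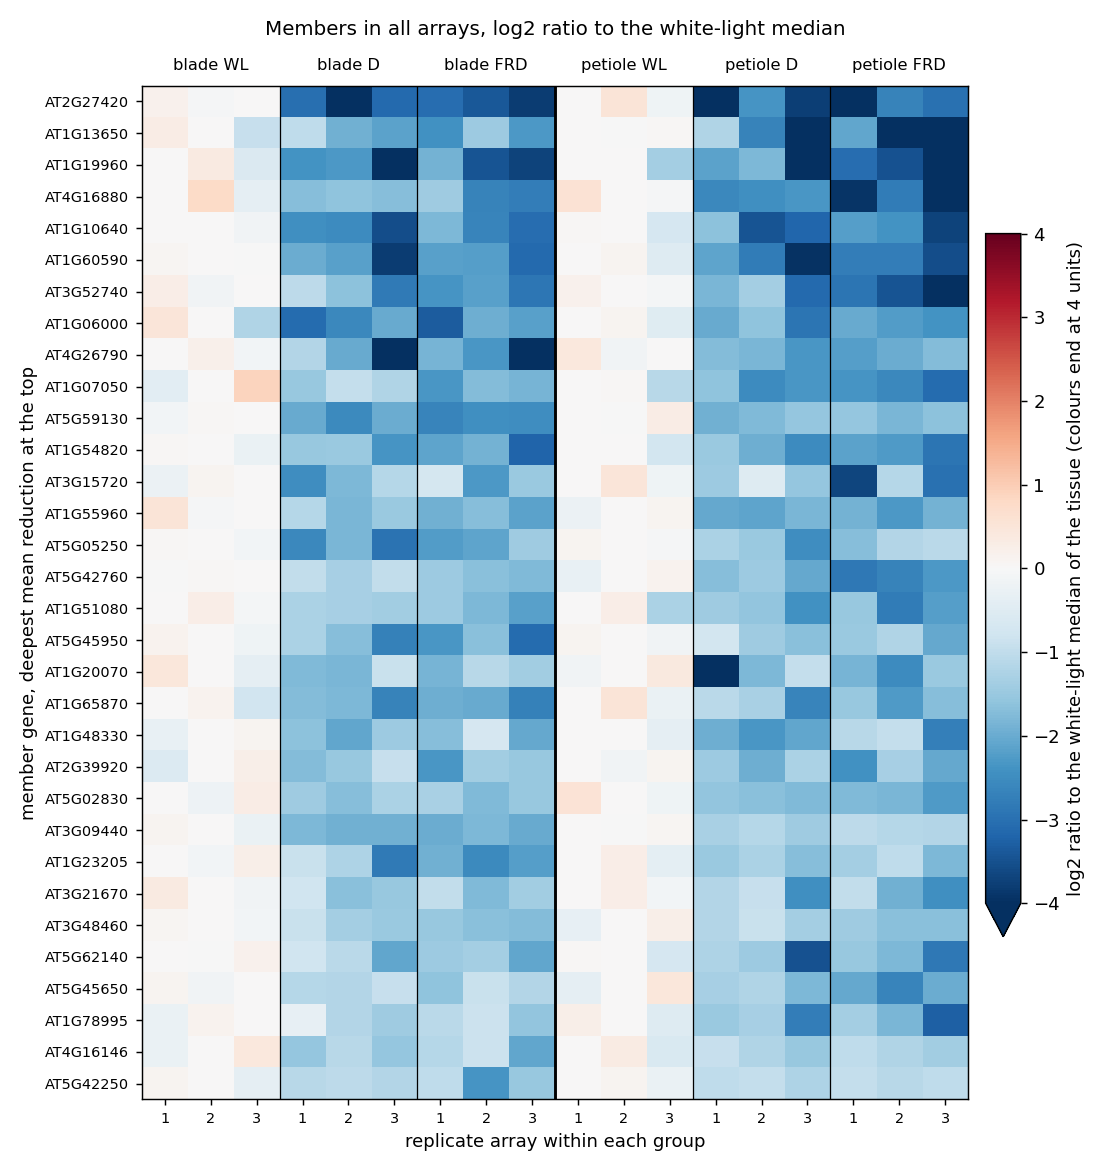
Heat map of the log2 ratio to the white-light median of the tissue for the 32 members (lines, deepest mean reduction at the top) in the 18 arrays (columns, 3 replicates per group). White-light arrays are near 0 (white) and every dark array of a member is bluer than its white-light arrays in the same tissue and colours end at 4 units, so ratios under that end share the darkest blue.

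AT2G27420 was the most reduced member, 9.91-fold on average. In blades its ratio was 0.123, 0.0468 and 0.117 in D and 0.12, 0.0958 and 0.0721 in FRD, against 1.12, 0.963 and 1 in WL. In petioles it was 0.0243, 0.195 and 0.0733 in D and 0.0165, 0.156 and 0.126 in FRD, against 1, 1.42 and 0.887 in WL. The lowest white-light array was 7.83 times the highest dark array in blades and 4.55 times in petioles, while D and FRD arrays overlapped in both tissues.

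AT1G13650 followed at 7.7-fold, and its arrays were less uniform. Blade ratios were 0.495, 0.263 and 0.228 in D, 0.185, 0.364 and 0.203 in FRD and 1.24, 1 and 0.532 in WL. The third of these white-light arrays came within 1.07 times of the highest dark array. Petiole ratios were 0.438, 0.156 and 0.0528 in D, 0.237, 0.0339 and 0.0341 in FRD and 1, 0.985 and 1.03 in WL. Here white light was tight and darkness was not, and the D arrays covered part of the FRD range.

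AT1G19960, reduced 7.32-fold, had blade ratios of 0.19, 0.204 and 0.0475 in D and 0.267, 0.0909 and 0.0761 in FRD, against 1, 1.28 and 0.67 in WL. Its petiole ratios were 0.225, 0.29 and 0.0505 in D and 0.121, 0.0895 and 0.0495 in FRD, against 1, 1.02 and 0.387 in WL. Replicate 3 was the lowest array in each of the 6 groups for this gene, and D and FRD overlapped.

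AT4G16880, reduced 6.43-fold, had the most negative difference of FRD from D in petioles among the members. In blades it read 0.308, 0.326 and 0.309 in D and 0.37, 0.157 and 0.148 in FRD, against 1, 1.69 and 0.784 in WL. In petioles it read 0.167, 0.183 and 0.201 in D and 0.0659, 0.145 and 0.0207 in FRD, against 1.49, 1 and 0.969 in WL. Each petiole FRD array was under each petiole D array, whereas the blade groups overlapped through the first FRD array.

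AT1G10640 and AT1G60590 behaved alike in level. AT1G10640 had blade ratios of 0.184, 0.175 and 0.0856 in D and 0.29, 0.162 and 0.12 in FRD, and petiole ratios of 0.324, 0.0919 and 0.11 in D and 0.215, 0.192 and 0.0763 in FRD. AT1G60590 had blade ratios of 0.252, 0.221 and 0.0719 in D and 0.22, 0.217 and 0.115 in FRD, and petiole ratios of 0.233, 0.145 and 0.0641 in D and 0.148, 0.146 and 0.0847 in FRD. White light stood at 1, 1 and 0.911 in blades and 1.03, 1 and 0.628 in petioles for AT1G10640, and at 1.06, 1 and 0.979 and 1, 1.08 and 0.705 for AT1G60590. Neither gene separated D from FRD in any tissue.

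AT3G52740 was reduced 4.99-fold. Its petiole ratios were 0.279, 0.389 and 0.117 in D and 0.131, 0.0913 and 0.0383 in FRD, against 1.12, 1 and 0.95 in WL. In blades it had 0.488, 0.323 and 0.142 in D and 0.196, 0.222 and 0.136 in FRD, against 1.2, 0.899 and 1 in WL. Only the third D array of each tissue kept the D and FRD groups from separating.

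AT1G06000 was at 0.118, 0.167 and 0.245 in blade D and 0.1, 0.261 and 0.224 in blade FRD, against 1.41, 1 and 0.433 in WL. Its petiole ratios were 0.245, 0.326 and 0.132 in D and 0.246, 0.214 and 0.19 in FRD, against 1, 1.07 and 0.72 in WL. The dark groups overlapped in each tissue, and white light in blades spanned more than 2-fold.

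AT4G26790 and AT1G07050 were each reduced close to 4-fold, by 4.11-fold and 3.99-fold. AT4G26790 had blade ratios of 0.441, 0.247 and 0.0637 in D and 0.276, 0.2 and 0.0593 in FRD, and petiole ratios of 0.302, 0.279 and 0.198 in D and 0.218, 0.255 and 0.298 in FRD. Its white-light ratios were 1, 1.14 and 0.933 in blades and 1.34, 0.917 and 1 in petioles. The petiole arrays of this gene were close together, and those of the blade were spread by replicate number 3.

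AT1G07050 had blade ratios of 0.353, 0.513 and 0.435 in D and 0.198, 0.3 and 0.277 in FRD, against 0.754, 1 and 1.86 in WL. In petioles it had 0.33, 0.176 and 0.198 in D and 0.196, 0.166 and 0.119 in FRD, against 1, 1.04 and 0.468 in WL. All blade FRD arrays lay under all blade D arrays, and the petiole groups overlapped.

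AT5G59130 and AT1G54820 completed the 12 deepest. AT5G59130 was at 0.248, 0.171 and 0.252 in blade D, 0.16, 0.181 and 0.179 in blade FRD, 0.265, 0.296 and 0.341 in petiole D and 0.343, 0.284 and 0.318 in petiole FRD, against blade WL of 0.919, 1.03 and 1 and petiole WL of 1, 0.998 and 1.24. AT1G54820 was at 0.35, 0.359 and 0.194 in blade D, 0.23, 0.272 and 0.108 in blade FRD, 0.358, 0.261 and 0.176 in petiole D and 0.226, 0.209 and 0.133 in petiole FRD, against blade WL of 1.04, 1 and 0.838 and petiole WL of 1, 1 and 0.602. AT5G59130 was one of the most repeatable members, with a pooled within-group SD of 0.18 log2 units.

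**Figure D2:**
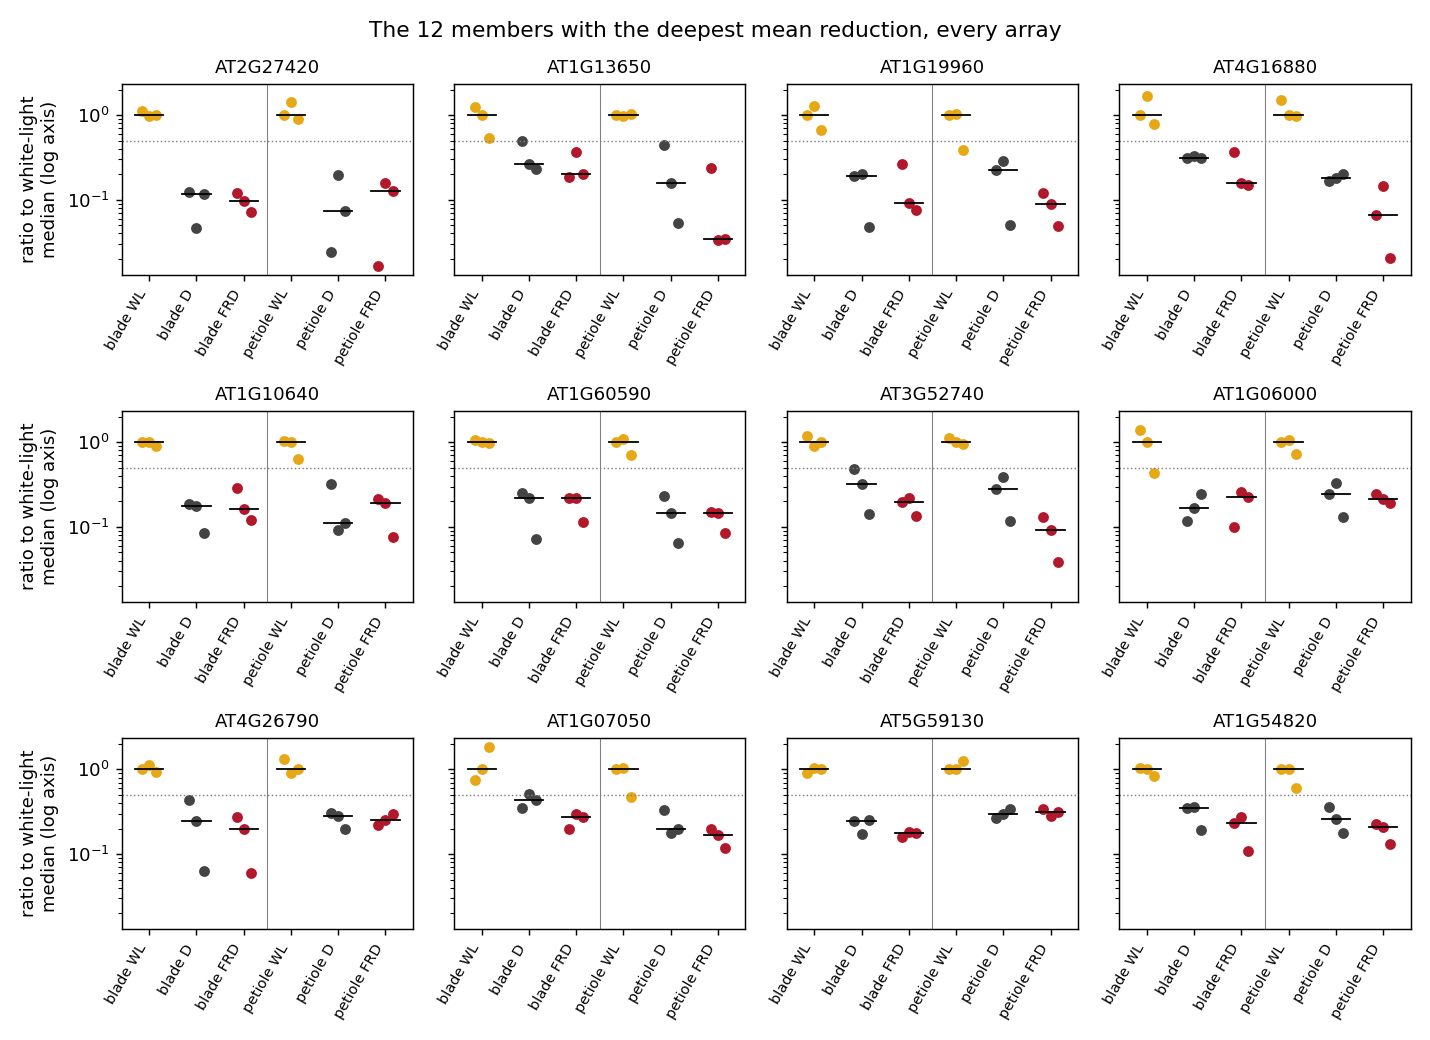
Ratio to the white-light median of the tissue (log axis) in every array for the 12 members with the deepest mean reduction, white light in yellow, D in dark grey and FRD in red. Short lines are group medians over 3 arrays and the dotted line marks 0.5; all D and FRD points lie under the white-light points of the same tissue, while D and FRD overlap in most panels.

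Of the other 20 members, 1 has a family name in RefSeq. AT3G21670 is NPF6.4 there, a member of the NRT1/PTR family, whose proteins carry nitrate, peptides and other small solutes across membranes. Its blade ratios were 0.572, 0.313 and 0.351 in D and 0.507, 0.294 and 0.385 in FRD, against 1.29, 1 and 0.899 in WL. Its petiole ratios were 0.441, 0.528 and 0.183 in D and 0.504, 0.266 and 0.183 in FRD, against 1, 1.21 and 0.93 in WL. The mean reduction was 2.82-fold, and D and FRD overlapped in each tissue.

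AT3G09440 was the most repeatable of the 32, with a pooled SD of 0.12 log2 units, with lower dark values in blades than in petioles. It read 0.286, 0.265 and 0.265 in blade D, 0.25, 0.288 and 0.246 in blade FRD, 0.411, 0.457 and 0.373 in petiole D and 0.481, 0.455 and 0.445 in petiole FRD. White light was 1.08, 1 and 0.826 in blades and 1, 0.997 and 1.06 in petioles. No blade dark array reached any petiole dark array.

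AT5G05250 also had lower values in blades, with medians of 0.166 in D and 0.231 in FRD against 0.357 and 0.443 in petioles. AT1G55960, at 0.354 and 0.263 in blades, had lower or similar petiole medians of 0.24 and 0.269. AT5G02830 was even throughout, at 0.375, 0.347, 0.315 and 0.283 in blade D, blade FRD, petiole D and petiole FRD. In that same order of groups, AT1G51080 had medians of 0.394, 0.286, 0.333 and 0.218, and AT5G45950 had 0.308, 0.2, 0.37 and 0.36. The reduction of these genes was between 3.05-fold and 3.59-fold on average.

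The remaining members were similar in depth. In the order blade D, blade FRD, petiole D and petiole FRD, the medians were 0.293, 0.382, 0.287 and 0.277 for AT1G20070, 0.285, 0.249, 0.411 and 0.31 for AT1G65870, and 0.324, 0.304, 0.236 and 0.465 for AT1G48330. They were 0.35, 0.353, 0.367 and 0.241 for AT2G39920, 0.426, 0.216, 0.358 and 0.386 for AT1G23205, and 0.475, 0.363, 0.366 and 0.287 for AT5G62140. The D arrays of AT1G20070 in petioles were spread widely, at 0.0583, 0.287 and 0.516. The smallest mean reductions were those of AT1G78995 at 2.63-fold, AT4G16146 at 2.41-fold and AT5G42250 at 2.25-fold.

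The rule left a sharp edge in a continuous range. AT5G42760, with its highest dark median at 0.5, and AT5G42250, at 0.494, were just inside the median threshold, and AT3G56080 and AT1G80850, both at 0.501, were just outside. On the requirement of no overlap, the lowest white-light array was 1.06 times the highest dark array for AT1G78995 and 1.07 times for AT1G13650, just inside, and 0.967 times for AT1G48100 and 0.949 times for AT3G06160, just outside. The gap was at least 2-fold in both tissues for 9 members, and in 14 members each for blades and for petioles. Among locus-code genes other than those left out, 138 met the rule in blades and 95 in petioles, so the 32 shared genes are 23.2% of the first set and 33.7% of the second. With every criterion mirrored, so that dark values are raised, 63 locus-code probe sets met it. Of all 22746 non-control probe sets, with no gene left out, 292 met the criteria in blades, 230 in petioles and 173 the mirrored ones. Of the genes left out, AT2G15020 also meets the criteria, with medians of 0.257 and 0.218 in blade D and FRD and 0.0335 and 0.0432 in petiole D and FRD.

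The pooled within-group SD of the members had a median of 0.52 log2 units, against 0.33 over all 22746 probe sets, and ran up to 1.03. The 3 most reduced members were also the 3 most variable: AT2G27420 at 1.03, AT1G13650 at 1.0 and AT1G19960 at 0.96. The signal of these probe sets over background is unknown.

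The far-red pulse lowered 1 member beyond darkness in petioles by the test across all probe sets. AT5G42760 stood at 0.304, 0.364 and 0.24 in petiole D and 0.138, 0.157 and 0.204 in petiole FRD, against 0.818, 1 and 1.1 in WL. Every FRD array was under every D array. The change was -0.86 ± 0.18 log2 units, a fall of 1.82-fold from D to FRD (SE, limma adjusted p = 0.0389, 3 arrays per group). In petioles 1.09% of all probe sets were called for this comparison in either direction, 0.215% lower and 0.879% higher. The rule treats D and FRD alike, so it does not fix the direction of this difference.

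AT5G42760 also had lower values in blade FRD than in blade D, without a call. It had 0.508, 0.397 and 0.5 in blade D and 0.363, 0.312 and 0.296 in blade FRD, against 0.996, 1.04 and 1 in WL. The groups did not overlap, and the difference was -0.53 ± 0.18 (adjusted p = 0.4). The petiole call was lost without petiole D replicate 1 (adjusted p = 0.127), petiole D replicate 2 (0.213), petiole FRD replicate 1 (0.179) or petiole FRD replicate 2 (0.16), and it held without the replicate 3 arrays of every group, an alternative added after seeing the data, at -1.18 (adjusted p = 0.043). It was also lost with quantile normalization (adjusted p = 0.569), the variance trend (0.286), the compared arrays alone (0.388) and a pseudocount (-0.25, adjusted p = 0.289). A replicate block in the fit ended the call as well (adjusted p = 0.0623), and a floor above these values left no difference.

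No member was called for the pulse in blades by limma, where 0.651% of all probe sets were called in either direction, 0.0923% lower and 0.558% higher, and 3 members had an unadjusted p under 0.05. These were AT5G42760, AT3G48460 at -0.40 ± 0.18 and AT5G59130 at -0.35 ± 0.16. Of all 22746 probe sets, 1723 in blades and 1858 in petioles had an unadjusted p under 0.05. In petioles 6 members had an unadjusted p under 0.05, all with negative differences. Besides AT5G42760 they were AT4G16880 at -1.65 ± 0.55 (adjusted p = 0.307), AT3G52740 at -1.6 ± 0.52 (0.279), AT3G15720 at -1.43 ± 0.57 (0.485), AT5G45650 at -0.78 ± 0.25 (0.255) and AT3G48460 at -0.45 ± 0.18 (0.492).

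AT3G48460 was the second member whose D and FRD arrays did not overlap in either tissue. In blades it read 0.544, 0.391 and 0.355 in D and 0.349, 0.314 and 0.303 in FRD, and in petioles 0.445, 0.536 and 0.393 in D and 0.375, 0.313 and 0.315 in FRD. White light stood at 1.05, 1 and 0.926 in blades and 0.802, 1 and 1.19 in petioles. The difference between D and FRD was small in both tissues, and it passed no adjusted test.

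AT5G45650 separated D from FRD in petioles, at 0.4, 0.432 and 0.289 in D and 0.24, 0.161 and 0.253 in FRD, against 0.784, 1 and 1.38 in WL. Its blade arrays overlapped, at 0.453, 0.448 and 0.533 in D and 0.326, 0.536 and 0.441 in FRD, against 1.08, 0.917 and 1 in WL. AT3G15720 had overlapping groups in both tissues, at 0.367, 0.692 and 0.344 in petiole D, 0.0787, 0.452 and 0.125 in petiole FRD, 0.177, 0.287 and 0.456 in blade D and 0.613, 0.205 and 0.361 in blade FRD. Its white-light ratios were 1, 1.4 and 0.891 in petioles and 0.849, 1.08 and 1 in blades.

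Most differences of FRD from D among the members were negative. The median difference over the 32 was -0.25 log2 units in blades and -0.21 in petioles, against -0.02 in each tissue over all probe sets. Negative differences were found for 22 of 32 members in blades and 23 in petioles, against 53.5% and 52.7% of all probe sets, and for 17 in both. FRD arrays lay wholly under D arrays for 4 members in blades (AT1G07050, AT1G51080, AT3G48460 and AT5G42760), where 5.59% of all probe sets did so. The same was true of 4 in petioles (AT3G48460, AT4G16880, AT5G42760 and AT5G45650), where 6.85% did. No member had FRD wholly above D in either tissue, where 5.34% of all probe sets did so in blades and 7.03% in petioles.

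These medians moved with single arrays. In blades the median was -0.07 without D replicate 1, -0.09 without FRD replicate 3 and -0.43 without D replicate 3. In petioles it was -0.1 without D replicate 1, -0.06 without D replicate 2, -0.11 without FRD replicate 3 and -0.52 without D replicate 3. Without the replicate 3 arrays of every group, 23 members in blades and 26 in petioles were negative, with medians of -0.26 and -0.31. When 0.553, the 10th percentile of the ratios, was added before taking logs, the medians were -0.1 in blades and -0.08 in petioles, with 23 and 24 members negative. With a floor at that value both medians were 0, with 9 and 2 members negative, since nearly all dark values of the members lie under it.

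Members that did not share the direction included AT5G05250, with pulse differences of 0.53 ± 0.33 in blades and 0.43 ± 0.33 in petioles, and AT1G48330, with 0.24 ± 0.42 and 0.53 ± 0.42. Across the 32 members the pulse difference in blades and that in petioles, which share no arrays, had a Pearson correlation of 0.38 and a Spearman correlation of 0.43. These are given as a description, since genes are not replicates.

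**Figure D3:**
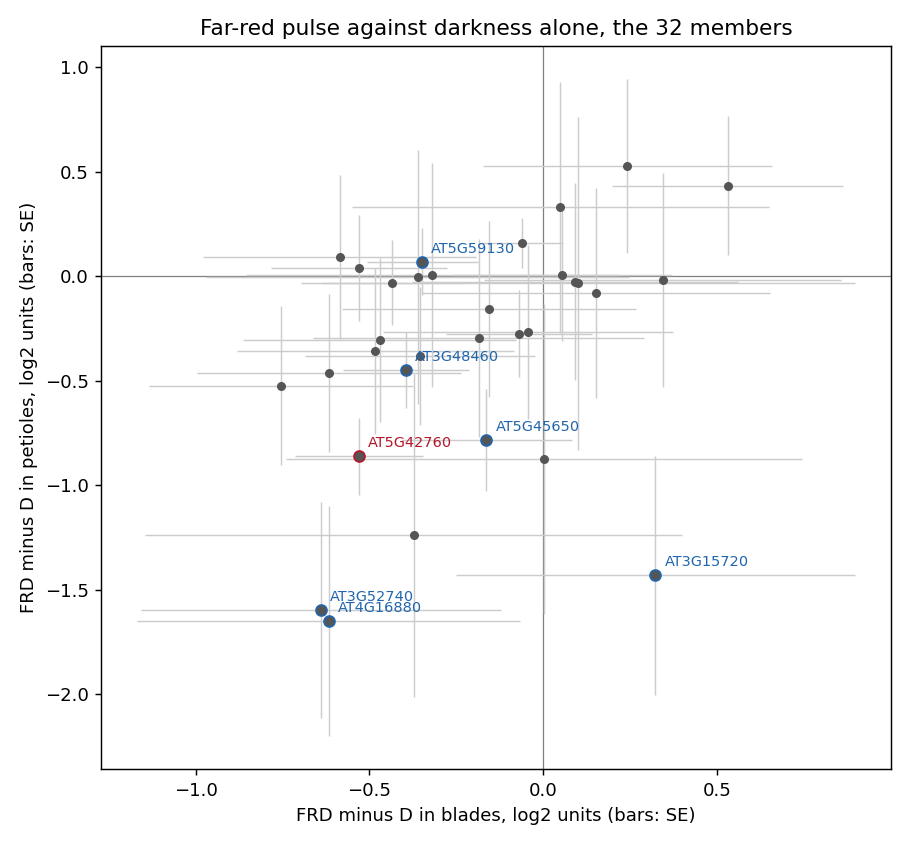
FRD minus D in blades (horizontal) against FRD minus D in petioles (vertical), log2 units, for the 32 members, with bars for the standard error of the limma fit. AT5G42760, in red, is the member called in petioles at -0.86; members in blue had an unadjusted p under 0.05 in a tissue, and 17 points lie below 0 on both axes.

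Blade and petiole were compared through the change from white light in each tissue. Limma called none of the 32 members for a tissue difference in the change from WL to D, with 2 members at an unadjusted p under 0.05, nor in the change from WL to FRD, with 5 at that level. For the pulse response itself none was called and 1 member, AT3G15720, was at that level, at -1.76 ± 0.81 petiole minus blade (adjusted p = 0.943). The background was as sparse, with 0.0044%, 0.0352% (0.022% lower and 0.0132% higher in petioles) and 0% of all probe sets called. In the same order, 1506, 1681 and 1197 of all 22746 probe sets had an unadjusted p under 0.05. Every alternative fit that was run, replicate 3 left out included, also called no member for these 3 differences. The rule required a fall in both tissues, so genes that fell in a single tissue had been removed beforehand. The absence of calls for the changes from WL is therefore not read as likeness of the tissues.

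Among the values that did not pass, AT3G09440 came closest. Petiole minus blade, its change from WL differed by 0.52 ± 0.17 log2 units in D (adjusted p = 0.568) and by 0.74 ± 0.17 in FRD (adjusted p = 0.191). AT5G59130 had a like sign, 0.73 ± 0.23 in FRD (adjusted p = 0.426). AT5G42760, AT4G16880 and AT5G45650 had values of the other sign in FRD, at -0.91 ± 0.26, -1.85 ± 0.78 and -1.03 ± 0.35, with adjusted p from 0.363 to 0.621. Across members the change from WL in blades and in petioles had a Pearson correlation of 0.69 for D and 0.49 for FRD, over a range cut by the rule. The lowest of the 4 dark medians was that of petiole FRD in 16 members, blade FRD in 8, petiole D in 5 and blade D in 3.

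**Figure D4:**
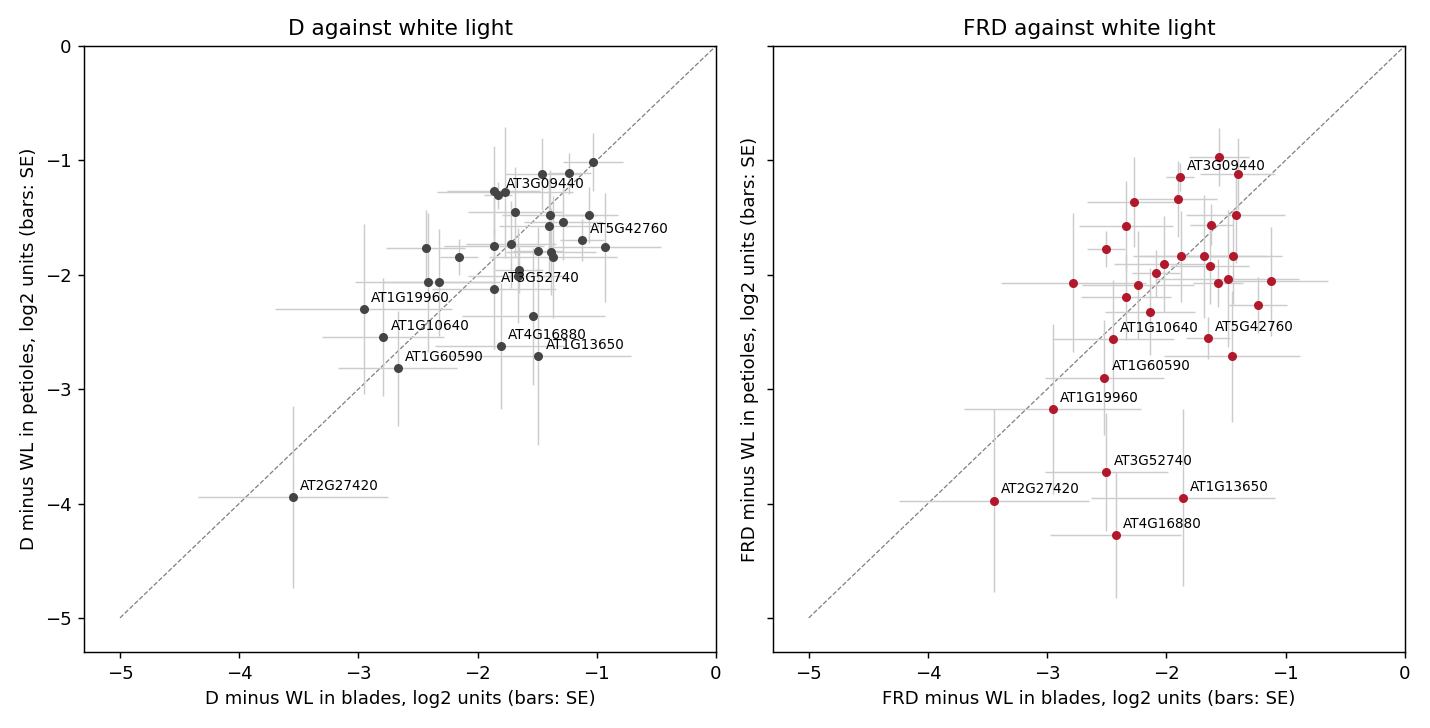
Change from white light in blades (horizontal) against that in petioles (vertical), log2 units with standard errors of the limma fit, for D (left) and FRD (right). Points on the dashed line changed equally; AT3G09440 lies above it in each panel and AT4G16880, AT1G13650 and AT3G52740 lie well below it for FRD, though no difference between tissues was called.

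By their locus codes 14 lie on chromosome 1, 2 on chromosome 2, 5 on chromosome 3, 3 on chromosome 4 and 8 on chromosome 5. Chromosome 1 holds 43.8% of members and 26.0% of the locus-code probe sets, and chromosome 2 holds 6.25% and 16.5%. These shares were not tested. AT1G19960 and AT1G20070 have 10 protein-coding genes between them, and no other 2 members are closer. AT5G05250 is separated by 1 gene from CHIL (AT5G05270), a chalcone isomerase-like gene of flavonoid synthesis whose medians were 0.343, 0.407, 0.447 and 0.466 in blade D, blade FRD, petiole D and petiole FRD. RefSeq gene length, introns included, had a median of 1761 bases in members and 2092 in the 11885 locus-code probe sets with a length.

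Genes with a symbol met the same criteria in 9 cases, 0.57% of 1580, against 0.277% of the 11933 locus-code probe sets. Besides CHIL they were AOP1, a dioxygenase of glucosinolate metabolism, CYP71B26, a cytochrome P450, EXPB1, a beta-expansin of the cell wall, GH9C2, a glycosyl hydrolase, GI, a clock gene, UGT76E11 and UGT78D1, glycosyltransferases, and VTC4, which acts in ascorbate synthesis. Their medians ran from 0.126 in blade FRD for GI to 0.477 in petiole D for UGT78D1. A further 46 probe sets without a gene in the annotation used also met the criteria, 0.527% of 8730. Of all 22746 non-control probe sets, 88 met them, 0.387%.

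Lists of other light-dependent genes and of tissue markers could be read only in part, since 12 of their 104 genes have a named probe set. None of those 12 is a member, but the rule leaves out any gene with a symbol. GI and UGT78D1, which carry symbols, are among the 12 and meet its criteria on the values. The lists were chosen with earlier results of these data known. The p-values of GI and UGT78D1 against white light are therefore no independent support. Of 4 flavonoid genes, UGT78D1, a flavonol rhamnosyltransferase, fell in all 4 comparisons with white light, at -1.47 and -1.59 log2 units in blade D and FRD and -1.19 and -2.1 in petiole D and FRD (limma adjusted p from 0.00131 to 0.0444). UGT78D2 was called lower in petiole FRD (-1.45 ± 0.25, adjusted p = 0.0027), while HYH, a light-signalling bZIP factor, stood at -0.94 ± 0.29 there (adjusted p = 0.0637), and DFR at -0.7 ± 0.49. The list medians were -0.44 in blade D, -0.47 in blade FRD, -0.6 in petiole D and -1.19 in petiole FRD, against medians within 0.03 of 0 over all probe sets. In the same order, 11.2%, 11.2%, 5.6% and 8.31% of all probe sets were called, 4.47%, 4.74%, 2.15% and 3.87% lower and 6.7%, 6.41%, 3.45% and 4.44% higher.

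GI was the single clock gene measured of 17, and it fell in all 4, at -2.11 and -2.86 log2 units in blade D and FRD and -1.86 and -2.09 in petiole D and FRD (limma adjusted p from 0.000373 to 0.011). The 2 chlorophyll synthesis genes, CHLM and PORB, and the 3 Calvin cycle genes, RCA, SBPASE and PRK, were called in none of the 6 comparisons of D, FRD and WL within tissues. The chlorophyll list had medians of -0.18, -0.22, -0.29 and -0.38 in blade D, blade FRD, petiole D and petiole FRD against white light, and the Calvin cycle list had -0.12, -0.17, -0.12 and -0.14. PORB was between -0.24 and -0.49 against white light, and RCA between -0.0036 and -0.12. The guard cell genes FAMA and GC1 were not called either, at -0.01 to -0.44, with medians of -0.15, -0.23, -0.26 and -0.34. None of the 12 genes was called for FRD against D. The lists of B-box factors (19 genes), light signalling (14), nitrate use (6) and vascular markers (6) have no named probe set, and neither have the other epidermal markers. Even with more markers the labelled tissue could not be checked, since each value is a ratio to white light in its own tissue.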

How the data were processed

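Biotin-labelled cRNA was hybridised to Affymetrix Arabidopsis arrays, per the labels' protocols. The authors deposited a ratio for every probe set and array. Over the 3 WL arrays of a tissue its median is exactly 1 in all 22810 probe sets, and the division by that median is read from the values. Summarization and scaling before that step are not given in the sources used here. There are 3 missing values, none in a member.

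The members and gene lists were chosen with earlier results of these data known. The rule was applied to the ratios. After taking log2, a model with a mean for each group was fitted over 18 arrays (limma 3.58.1, R 4.3.3), with 12 residual degrees of freedom, no trend and no pseudocount, and Benjamini-Hochberg adjustment over 22746 probe sets after leaving out 64 controls. A call is an adjusted p under 0.05, two-sided. Comparisons used by the rule were not tested for members, while FRD against D and differences between tissues were. The differences between tissues in the changes from WL are built from values that the rule used in both tissues. Arrays limit precision by their number, and errors are SDs over 3 arrays or standard errors of the fit.

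All 32 members matched RefSeq (TAIR10.1) by Entrez number, with names and gene order taken from it and no coordinates, since the files name no build. Sequences and product descriptions were not used here, so the planned ordering by functional class was not made and no role is given to a locus code without a RefSeq name. Full array values were given for the 12 deepest members, for called members and for the one with a family name, and also, a choice made after the values were seen, for members with an unadjusted p under 0.05. For a listed gene with several probe sets, the one with the smallest pooled SD was used.

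Replicate numbers are shared by the groups. Same-numbered arrays deviated together beyond a correlation of 0.1 in 7 of 45 pairs, all 7 of them between replicate 3 arrays. The median correlation was 0.04 for the same number and -0.02 for other numbers, and 15 of 18 arrays correlated best with their own number. The main fit took no pairs from the numbers, and a replicate block was run as an alternative. Whether same-numbered arrays share a batch was not tested otherwise. Alternatives were other normalizations, a floor, a pseudocount, a variance trend, array weights, the compared arrays alone, a replicate block and leaving out arrays.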

Additional observations from a re-analysis of the deposited data

Results flagged for a closer look

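The 25S ribosomal RNA control lies outside the probe sets tested, and it was flagged because its blade D arrays were all above its blade WL arrays. Its mean log2 ratio was 0.97 in blade D, and it was 0.34 in blade FRD and 0.05 in petiole D. No other control was searched in this way, and others moved too, in both directions. An actin control stood at -0.36 ± 0.24 in blade D, wholly under blade WL at -0.04 ± 0.1 (SD, n = 3). In petioles the 5S ribosomal RNA control was at -1.97 ± 1.84 in D and 0.07 ± 0.34 in WL. Control U12639 was at 2.56 ± 0.66 and 0.87 ± 2.1 there. The part of these controls in the results was not tested. The blade D arrays serve both the change from white light and the reference for the pulse in blades.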

How the results depend on the processing

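The number of members, 32, depends on the scale and thresholds. It was 15 with quantile normalization, 122 with the 75th percentiles aligned, 18 with medians of at most 0.4, 77 with medians of at most 0.6 and 74 with no requirement on overlap. It was 34 with array medians aligned, and between 30 and 39 on leaving out 1 array. It was 40 without the replicate 3 arrays of every group, which kept 27 of the 32. White-light arrays are ratios to their own median and dark arrays are not, so equal quantiles or percentiles are not given for them. How much of the counts of 15 and 122 comes from this was not tested. The 1 member called for the pulse in petioles became 0 with quantile normalization, the floor at the 10th percentile of all values, the pseudocount at that percentile, the variance trend, the replicate block and the compared arrays alone, and leaving out 1 array gave 0 to 1. The floor of 0.553 lies above nearly every dark value of the members, so that setting removes their differences by construction. For AT5G42760 the difference kept its sign except at the floor, where it was 0, and the call held with the 75th percentiles aligned, medians aligned and array weights, while the adjusted p was 0.0623 with the replicate block. The replicate block, which fits a shift for each replicate number, also gave 0 members in blades and 0 for each difference between tissues. In 15 of 18 arrays the deviations correlated best with the same number. No paired analysis was possible for the number of members because it comes from no test. The counts of 0 in blades and for the 3 differences between tissues stayed at 0 in all alternatives. The cause of these changes was not tested otherwise.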
